A study of Triticum aestivum and Triticum urartu with 56 samples.

Results

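GW2 is a RING-type E3 ubiquitin ligase, an enzyme that marks other proteins with ubiquitin. In rice it restricts cell division in the spikelet hull and so limits grain width and weight, and its Arabidopsis relative DA2 limits seed and organ size. Bread wheat is a hexaploid that carries a copy of most genes on each of its A, B and D subgenomes, and these copies are called homoeologues. Wheat plants that lack working copies of GW2 are known for larger and heavier grains.

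The genes described here were the 3 wheat homoeologues of GW2, TraesCS6A02G189300 (GW2-A), TraesCS6B02G215300 (GW2-B) and TraesCS6D02G176900 (GW2-D), taken by identifier from the 107891 genes listed. They lie on the group 6 chromosomes, as their identifiers give, and each was above 0 in all 9 RNA-seq libraries used. The study asked how transcripts that start in transposable elements act in wheat, and silenced one such transcript, derived from the RLG_famc7.3 retrotransposon family and higher in spikes, by RNA interference (RNAi). Kernels of the T1 plants were weighed in that work, which reported slightly lower kernel weight in the RNAi lines. Those weights were not analysed here, and the RNAi spikes used for RNA came from the T0 generation. A link between GW2 and kernel weight was not tested.

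Spikelets at booting stage (Feekes 10) were taken for 3 CK samples labelled as wild type and for 4 samples carrying the RLG_famc7.3 RNAi construct. All 7 spike libraries are labelled cultivar Fielder, although their titles start with cs, as those of Chinese Spring samples do. The text of the study instead names JW1 as the transformed cultivar. Its methods also call the CK spikes wild type, although elsewhere CK stands for transgenic negative controls, and give the RNAi spikes as 4 lines of the T0 generation. The spread between RNAi libraries thus includes that between lines. The other 2 libraries, both from untreated Chinese Spring wheat, held 9-day roots and embryos collected 14 days post anthesis. The silenced transcript is not among the listed genes, so its level was not read in these libraries, and no tissue markers were checked.

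Depth differed among the spike libraries. FPKM, which scales reads by gene length and by the library total, could be turned back into whole reads for 82610 of the 82611 genes above 0. The libraries held from 2492071 reads on genes in CK replicate 1 to 9849534 in RNAi replicate 3. In CK replicate 2 only 51.8% of the library total lay on genes, against 78.4% to 87.5% in the other 6 libraries, and its FPKM values are therefore low as a whole. This library also correlated least with the rest, with r of 0.588 to 0.747. The root and embryo libraries were deeper, with 20705861 and 33911272 reads on genes.

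All 3 homoeologues were transcribed at low levels in booting spikes, from the lower part to somewhat above the middle of the genes above 0. Their FPKM lay between the 24.6th percentile, for GW2-D in CK replicate 1, and the 64.7th percentile, for GW2-B in RNAi replicate 4. Single values rested on 5 to 72 reads, so the counting error was wide. Reads of near-identical homoeologues can be split between copies or dropped by a counter, and the handling of such reads is not given in the sources used here, so each level depends on it. In such bulk tissue, fewer cells that transcribe a gene and less RNA per cell cannot be told apart.

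GW2-A, the A subgenome copy, had an FPKM of 1.84, 0.508 and 2.34 in CK replicates 1 to 3. In the RNAi libraries it was 1.33, 2.28, 2.36 and 1.53. The groups overlapped over most of their range, and the lowest value of all came from CK replicate 2. CK averaged 1.56 ± 0.949 FPKM (SD, n = 3), and RNAi averaged 1.88 ± 0.522 (SD, n = 4).

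GW2-B, the B subgenome copy, stood at 2.60, 1.69 and 2.12 FPKM in the CK libraries and at 2.97, 3.22, 3.22 and 3.85 in the RNAi libraries. Every RNAi library lay above every CK library, with means of 2.14 ± 0.459 (SD, n = 3) and 3.31 ± 0.374 (SD, n = 4). Of the 55551 genes tested, 10.8% had all RNAi libraries above all CK libraries, so such a gap was common in these data. It was lost when the libraries were rescaled to 1 common FPKM total (TPM, a setting added after the data were seen). GW2-B then stood at 4.87, 5.75 and 3.61 TPM in CK and at 5.07, 5.55, 5.55 and 6.97 in RNAi, with CK replicate 2 inside the RNAi range. On TPM 7.84% of genes had no overlap in that direction. Scaled by gene length and by the reads on genes alone, GW2-B was again higher in every RNAi library, at 3.44 to 4.4 against 2.46 to 3.32 in CK, as were 7.49% of genes on that scale.

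GW2-D, the D subgenome copy, varied most. It stood at 0.908, 0.716 and 2.96 FPKM in CK, from 5, 10 and 50 reads, and at 3.04, 3.5, 2.48 and 3.44 FPKM in RNAi. CK replicates 1 and 2 were low and CK replicate 3 fell inside the RNAi range. The exact Poisson 95% interval of CK replicate 1 reached from 0.295 to 2.12 FPKM and that of CK replicate 3 from 2.20 to 3.91. CK averaged 1.53 ± 1.25 FPKM (SD, n = 3), and RNAi averaged 3.12 ± 0.468 (SD, n = 4).

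**Figure D1:**
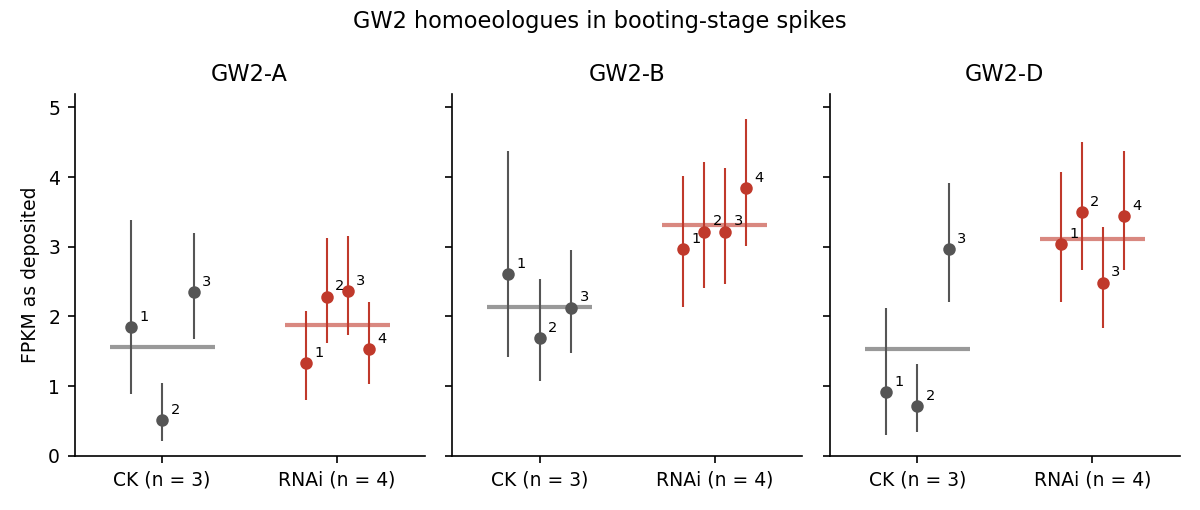
FPKM of each GW2 homoeologue (vertical axis) in the CK and RNAi spike libraries, numbered by replicate, with exact Poisson 95% counting intervals as vertical lines and the group mean as a horizontal bar. The GW2-B points separated the groups (highest CK 2.60, lowest RNAi 2.97), but the interval of CK replicate 1 covered all RNAi points. GW2-A overlapped throughout, and GW2-D was low in CK replicates 1 and 2 but not in CK replicate 3.

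None of the homoeologues passed an adjusted p of 0.05 between RNAi and CK spikes. With limma on log2(FPKM + 1), fitted over 55551 genes whose FPKM averaged 0.5 or more, GW2-A differed by 0.23 on the log2 scale (SE 0.33, unadjusted p = 0.515, adjusted p = 0.739). GW2-B was 0.47 higher in RNAi (SE 0.25, unadjusted p = 0.0996, adjusted p = 0.392) and GW2-D 0.80 higher (SE 0.34, unadjusted p = 0.0413, adjusted p = 0.323). In this fit 13.9% of the tested genes had a more positive log2 change than GW2-D, 30.4% than GW2-B and 46.1% than GW2-A. These shares leave out genes that fell in RNAi, whatever the size of the fall.

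Across all tested genes limma called 0.0306% higher (17 genes) and 0.598% lower (332 genes) in RNAi. The thresholds of the study's methods, a log2 change above 1 at an unadjusted p under 0.05, were set there for DESeq2. Applied here to limma on log2(FPKM + 1), they were passed upwards by 5.23% of genes (2904) and downwards by 2393 genes. That split depended on scaling and on the tool. It was 2477 higher and 4433 lower on TPM, and 2198 higher and 2819 lower after quantile normalization. DESeq2 on the reads recovered from FPKM gave 2705 higher and 6767 lower of 54713 genes. No GW2 homoeologue passed those thresholds on FPKM with a pseudocount of 1. GW2-D did with a pseudocount of 0.1, where its log2 change was 1.23 (limma, unadjusted p = 0.0373, adjusted p = 0.323), and without CK replicate 3, where it was 1.18 (limma, unadjusted p = 0.00356, adjusted p = 0.105). Upward passes were also more frequent over all genes in those settings, at 7.98% and 11.4%.

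The median gene was itself 0.17 higher in RNAi on the FPKM scale and 0.06 lower on TPM (log2 change -0.06). Above the median gene, GW2-A was 0.06 higher on FPKM and 0.16 on TPM, GW2-B 0.29 and 0.31, and GW2-D 0.63 and 0.80. Fits on recovered reads gave GW2-D a log2 difference of 0.75 with edgeR (unadjusted p = 0.15, adjusted p = 0.433). With DESeq2 it was 0.72 (unadjusted p = 0.168, adjusted p = 0.453). In neither of these fits did GW2-D pass the thresholds of the study's methods. GW2-D passed an adjusted p of 0.05 in 1 of 17 alternatives, limma with array weights, which count less reliable libraries less (log2 change 0.94, adjusted p = 0.0208). That setting called 13601 of the 55551 genes, with 11.6% of all tested genes called higher, so such a call was frequent there. Leaving out CK replicate 2 turned GW2-A to a log2 change of -0.12 and lowered GW2-D to 0.57.

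**Figure D2:**
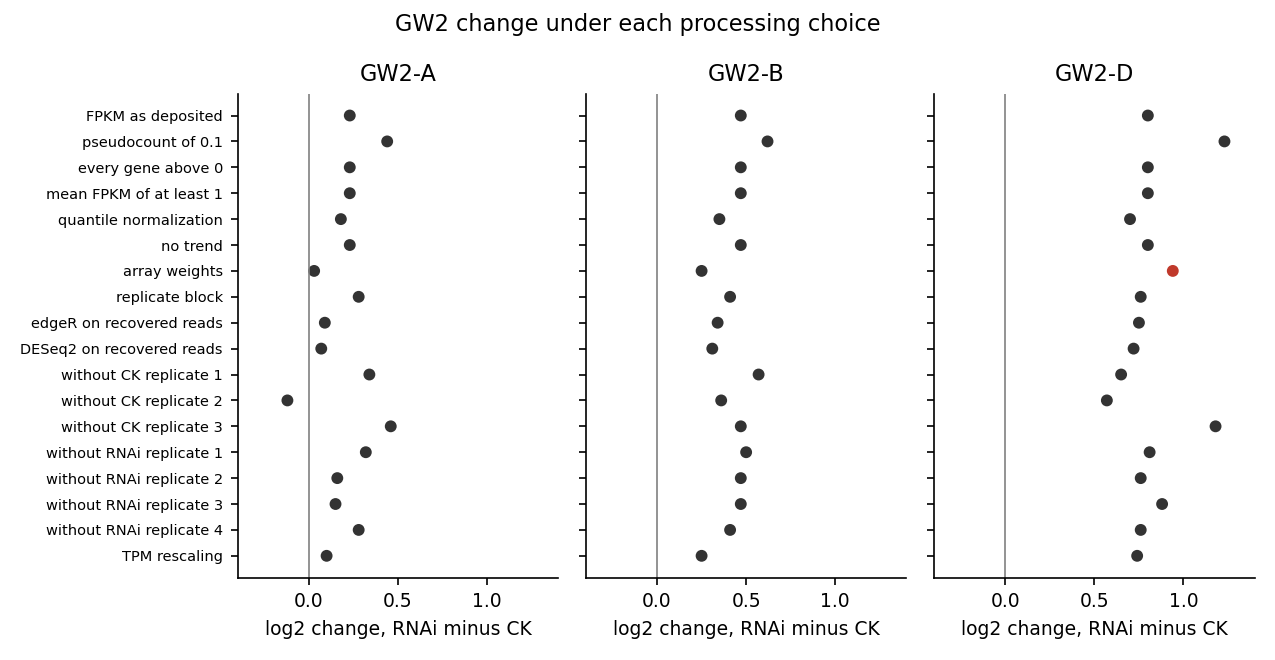
log2 change of each homoeologue, RNAi minus CK (horizontal axis), under each processing choice or with 1 library left out (vertical axis), with a red point where the adjusted p was under 0.05. GW2-B and GW2-D were above 0 in all 17 alternatives and GW2-A in 16, and 1 point is red, GW2-D with array weights.

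The summed level of the 3 copies was 5.35, 2.91 and 7.43 FPKM in CK and 7.34, 9.00, 8.07 and 8.82 in RNAi. CK replicate 3 lay just above RNAi replicate 1, and the other CK libraries were lower than every RNAi library. The mean log2 difference was 0.76, with a two-sided exact permutation p of 0.114, where the smallest p that 35 arrangements allow is 0.0571. On TPM the sums were 10.0, 9.92 and 12.6 in CK and 12.5, 15.5, 13.9 and 16.0 in RNAi, and the log2 difference was 0.42 (exact permutation p = 0.114). With a pseudocount of 1 it was 0.64, and with recovered reads scaled by TMM it was 0.46 (exact permutation p = 0.114 for each). After quantile normalization the difference was 0.59, and its p was the smallest that the test allows (exact permutation p = 0.0571). Without CK replicate 2 the log2 difference was 0.39 on FPKM.

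TaActin (TraesCS1A02G274400), the reference gene of the study's RT-qPCR, was at 19.0, 6.82 and 17.1 FPKM in CK and at 14.0, 7.32, 8.76 and 25.1 FPKM in RNAi. Its range within RNAi was wider than that of any GW2 homoeologue, and its groups overlapped.

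The share of each copy in the GW2 total does not depend on the library total, which matters for CK replicate 2. GW2-B was the highest copy in 4 of the 7 spike libraries and GW2-D in the other 3, and GW2-A was the highest in none. GW2-A was lowest in 5 libraries, GW2-D in CK replicate 1 and GW2-B in CK replicate 3.

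GW2-D made up 17.0%, 24.6% and 39.9% of the summed FPKM in the CK libraries and 41.4%, 38.9%, 30.8% and 39.0% in the RNAi libraries. Wilson 95% intervals on its share of reads were 7.60% to 34.5%, 14.2% to 40.2% and 32.1% to 49.1% in CK, and these cover counting error only. The low D shares of CK replicates 1 and 2 were thus measured on few reads, and the CK libraries spread more widely than the RNAi libraries.

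GW2-B held 48.6%, 57.9% and 28.6% in CK and 40.5%, 35.8%, 39.9% and 43.6% in RNAi. GW2-A held 34.4%, 17.5% and 31.5% in CK and 18.1%, 25.4%, 29.3% and 17.4% in RNAi. Both sets overlapped. On average the share of GW2-D was 10.4 percentage points higher in RNAi, and those of GW2-A and GW2-B changed by -5.25 and -5.13 points. A two-sided exact permutation test gave p = 0.343 for GW2-A, 0.514 for GW2-B and 0.229 for GW2-D (adjusted p = 0.514 for each of the 3). The smallest p that 35 arrangements allow is 0.0571 before adjustment. No share difference of any size could thus have passed the threshold used for the genes, so this test cannot decide whether the shares differed. The values obtained were all above that smallest p. Pooling reads within a group, which weights the deep CK replicate 3 most, gave GW2-D 33.7% of 193 reads in CK and 37.7% of 579 in RNAi, GW2-B 37.3% and 39.6%, and GW2-A 29.0% and 22.8%. The pooled D difference was thus smaller than the mean one, and that of GW2-B had the opposite direction. Without CK replicate 2 the GW2-B difference turned to 1.32 points, without CK replicate 1 that of GW2-D fell to 5.28, and without CK replicate 3 it rose to 16.7.

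**Figure D3:**
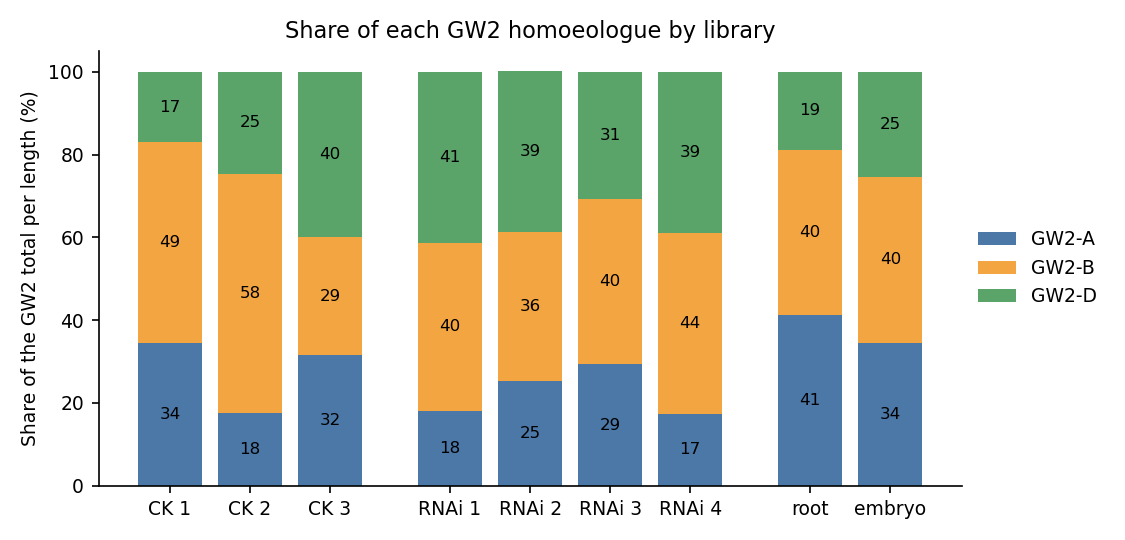
Share of each GW2 homoeologue in the summed level per gene length (vertical axis, percent), from FPKM in the 7 spike libraries and from reads per recovered length in root and embryo. GW2-D held 17.0% and 24.6% in CK replicates 1 and 2, 30.8% to 41.4% in the other spike libraries, 18.9% in root and 25.3% in embryo.

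Set against each other within a library, GW2-A was below GW2-B in 6 of 7 spike libraries. The mean log2 ratio of A over B was -0.79 ± 0.64 (SD, n = 7), so GW2-B was 1.73-fold higher on the geometric mean. A two-sided exact sign-flip permutation test gave p = 0.0312, and p = 0.0938 after adjustment over the 3 pairs. The smallest p that this test allows is 0.0156. GW2-A was also below GW2-D in 6 libraries, with a log2 ratio of -0.41 ± 0.75 (SD, n = 7; exact permutation p = 0.188, adjusted p = 0.281). GW2-B exceeded GW2-D in 4 libraries and fell below it in 3, with a log2 ratio of 0.38 ± 0.73 (SD, n = 7; exact permutation p = 0.281, adjusted p = 0.281). No neighbours in the order B, D, A were thus set apart beyond the spread between libraries.

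Within CK, the log2 ratio of A over D was 1.02, -0.49 and -0.34, so GW2-A was below GW2-D in 2 of 3 libraries, and it was below it in all 4 RNAi libraries. The CK mean of 0.06 took its sign from CK replicate 1 alone, which had 10 reads of GW2-A and 5 of GW2-D, and the RNAi mean was -0.76. The log2 ratio of A over B was -0.50, -1.73 and 0.14 in CK, with libraries on both sides of 0, and -1.16, -0.49, -0.45 and -1.33 in RNAi. No difference between the groups was tested for these ratios.

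In Chinese Spring, all 3 homoeologues were higher in the embryo library than in the root library, relative to all reads on genes. There was 1 library for each tissue, so no test was made, and the intervals below cover counting error only. GW2-A had 172 reads in root and 349 in embryo, or 8.31 and 10.3 CPM, counts scaled by all reads on genes. The ratio of embryo to root was 1.24 (exact 95% interval 1.03 to 1.5).

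GW2-B had 164 and 403 reads, 7.92 and 11.9 CPM, and a ratio of 1.5 (1.25 to 1.81). GW2-D had 80 and 259 reads, 3.86 and 7.64 CPM, and the largest ratio of the 3, 1.98 (1.53 to 2.57). The summed GW2 level was 1.48-fold higher in embryo (1.32 to 1.67), whereas TaActin was lower there at a ratio of 0.757 (0.712 to 0.806).

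None of the 3 copies reached 2-fold on CPM, and GW2-D passed it when the libraries were scaled by TMM (2.21) or by size factors (2.16). Of 69213 genes with at least 10 reads in both libraries together, 22.2% were on CPM at least 2-fold higher in embryo and 33.3% in root. Scaled by TMM, 17401 of these genes were at least 2-fold higher in embryo and 21616 in root. No such count was made with size factors. The differences of the GW2 copies were therefore smaller than those of many genes.

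**Figure D4:**
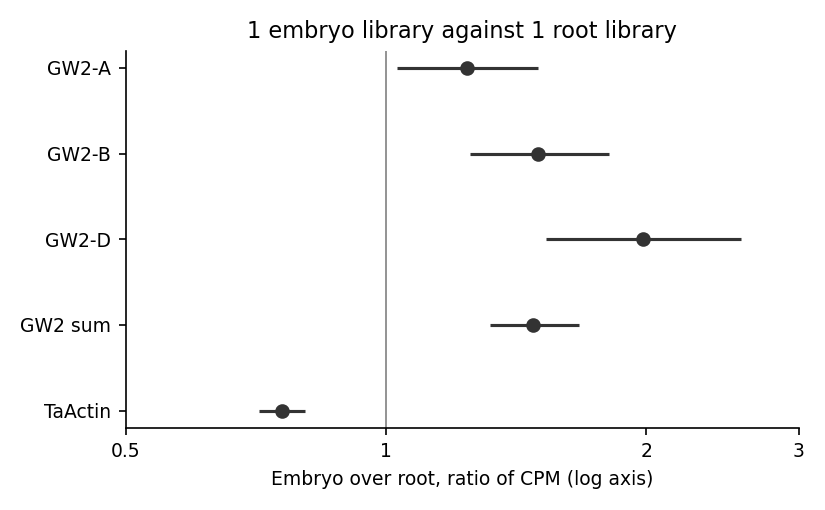
Ratio of CPM in the embryo library to the root library (horizontal log axis, with a line at equal levels) for each GW2 homoeologue, their sum and TaActin, with exact 95% counting intervals. The GW2 ratios were 1.24, 1.5 and 1.98 for A, B and D, and TaActin lay below 1 at 0.757.

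The balance of the copies differed between these 2 libraries. Per recovered length, GW2-A and GW2-B were nearly level in root, with shares of 41.3% and 39.8%, and GW2-D held 18.9%. In embryo the shares were 34.5% for GW2-A, 40.2% for GW2-B and 25.3% for GW2-D. GW2-D was thus the lowest copy in both tissues, and GW2-B kept nearly the same share.

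The level of GW2-D over GW2-A was 0.459 in root and 0.732 in embryo, a 1.59-fold difference with an exact counting interval of 1.16 to 2.21. The corresponding change of GW2-D over GW2-B was 1.32 (0.957 to 1.82) and that of GW2-B over GW2-A 1.21 (0.928 to 1.58), both with intervals that included no difference. The D over A interval does not include the spread between plants, which 1 library a tissue cannot show.

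The spike libraries carry another cultivar label and were deposited on another scale, and the methods name another company for their preparation. Their levels are therefore set beside those of root and embryo without a test. In RPKM recomputed from the reads on genes alone, the GW2 sum was 11.8 in root, 17.5 in embryo and 5.62 to 10.3 in the 7 spike libraries, with a median of 8.62. GW2-A stood at 4.86 in root and 6.02 in embryo, and at 0.981 to 2.73 in spikes. GW2-B stood at 4.68, 7.02 and 2.46 to 4.4, and GW2-D at 2.23, 4.41 and 1.16 to 4.00. On this scale the spike libraries were below both tissues for GW2-A and GW2-B, and GW2-D in spikes spanned its root level and stayed below its embryo level. For GW2-B the gap to root was small, 4.4 on 72 reads in RNAi replicate 4 against 4.68 on 164 reads. Counting error was not tested for that gap.

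Among 55548 other genes, the pair whose log2(FPKM + 1) followed the summed GW2 level most closely over the 7 spike libraries was TraesCS1D02G375800 (Pearson r = 0.998) and TraesCS4D02G115500 (r = 0.997), which the files do not name. TraesCS1D02G375800 ranged from 4.11 FPKM in CK replicate 2 to 17.1 in RNAi replicate 4. Without CK replicate 2 their r was 0.989 and 0.999 over 6 libraries. These points share library depth and the low gene share of CK replicate 2. A total of 1757 genes had an r of at least 0.95, and 106 of them still did without CK replicate 2.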

How the data were processed

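The authors aligned trimmed reads with HISAT2 (version 2.1.0, Trim Galore 0.6.4) and counted them on IWGSC RefSeq high-confidence genes with featureCounts. They deposited FPKM per gene for each spike library and read counts per gene for root and embryo. The members and tests were chosen with earlier results of these data known. The named genes were the 3 homoeologues, TaActin and the 2 genes most like the summed GW2 level.

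FPKM was tested with limma 3.58.1 (trend, R 4.3.3) on log2(FPKM + 1) with a minimum mean FPKM of 0.5, and Benjamini-Hochberg adjustment over all 55551 genes. Reads recovered from FPKM were tested with edgeR 4.0.16, which called 514 genes, and DESeq2 1.42.0, the tool named in the study's methods. The recovery took the shortest gene length that gave whole reads, within 0.003 reads or a relative 6e-06, whichever was larger. Such a length was found for 100% of genes above 0 after rounding, which does not by itself show that every count is exact. Sums, shares and ratios were compared by exact permutation (scipy 1.17.1). P-values measure only the spread between these libraries. The recovery of reads and the limma fit were tested on simulated data. Alternatives changed the pseudocount, filter, scaling, tool, block or libraries. Replicate numbers did not pair samples (r of -0.084, -0.048 and 0.089). The other assays, gene coordinates and sequences were not used here.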

Additional observations from a re-analysis of the deposited data

How the results depend on the processing

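Of 168 recomputed values, 149 kept their direction and their side of the threshold or stayed within 1.5 times of the count. For single genes, a crossing of the methods thresholds or of 2-fold between embryo and root was not counted as a change. GW2-D therefore counted as kept with a pseudocount of 0.1, without CK replicate 3, and in embryo over root scaled by TMM or size factors. The values that did not count as kept were as follows. GW2-D was called with array weights (log2 change 0.94). GW2-A turned to -0.12 and the GW2-B share to 1.32 points without CK replicate 2, and the log2 ratio of A over D turned to 0.06 in the CK libraries alone. With the libraries left out in turn, the log2 changes ranged from -0.12 to 0.46 for GW2-A, 0.36 to 0.57 for GW2-B, 0.57 to 1.18 for GW2-D and 0.39 to 1.07 for the sum. The share differences ranged from -10.4 to -1.95 points for GW2-A, -13.4 to 1.32 for GW2-B and 5.28 to 16.7 for GW2-D. The log2 ratios ranged from -0.94 to -0.63 (A over B), -0.65 to -0.28 (A over D) and 0.19 to 0.52 (B over D). The cause of these changes was not tested.

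The count of genes called over the whole table, 349, was 538 after quantile normalization, 13601 with array weights, 2772 with DESeq2, 665 on TPM and 173 to 773 with a library left out. The number past the thresholds of the methods, 5297, was 9093 with array weights, 8631 with edgeR, 9472 with DESeq2 and 3586 to 9541 with a library left out. The replicate block, which pairs only a number, gave 585 called genes and left the calls on GW2 unchanged, with log2 changes of 0.28, 0.41 and 0.76 for A, B and D, 0.73 for the sum, and share differences of -3.53, -6.35 and 9.87 points. Depth limits the spike values, since CK replicates 1 and 2 hold 29 and 40 GW2 reads in all.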
